A study of Mus musculus with 8 samples.

Results

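Upper astrocytes are the astrocyte nuclei that the authors assigned, by clustering, to the most superficial of 4 astrocyte groups in the mouse visual cortex (VC). They were taken here as every nucleus whose deposited class is the first upper astrocyte class, in all 8 libraries. There were 4108 of them among 44021 nuclei, or 9.33% of the table. They made up 35.6% of the 11532 non-mitotic astrocyte nuclei. The other astrocyte groups were mid (4499 nuclei), deep (1852 nuclei) and white matter (WM, 1073 nuclei), and 427 mitotic astrocytes formed a class apart. The mid group is deposited under the name of a second upper astrocyte class and is called mid here as in the paper. A library contributed between 292 and 768 upper astrocytes.

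Astrocytes tile the whole depth of the cortex, take up glutamate and potassium around synapses and release proteins that control how synapses form and mature. Those near the pial surface differ in shape and gene expression from those of the deeper layers and from the fibrous astrocytes of the white matter. Upper astrocytes are known for Chrdl1, a secreted protein that promotes synapse maturation. Slc1a2 and Slc1a3, the main glutamate transporters of astrocytes, mark astrocytes more widely. The material analysed here gives the class, depth and embedding position of each nucleus and no expression value per gene. The levels of Chrdl1, Slc1a2 and Slc1a3, and of the deleted genes Slc17a6 and Itpr2, were therefore not examined, and the name of the group rests on the authors' assignment.

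All mice were C57BL/6J background animals at postnatal day 14 (P14), and nuclei were sorted as NeuN-negative, which removes most neurons. VGlut2 cKO mice carried floxed Slc17a6, the gene of the vesicular glutamate transporter VGlut2, together with a cre expressed from the Rora locus, used by the study to delete the gene in thalamic neurons. VGlut2 WT mice carried the same floxed allele without cre. Ip3r2 KO mice lacked Itpr2, the IP3 receptor through which astrocytes release stored calcium, in every cell. Ip3r2 WT mice were their controls. The study used littermate and non-littermate controls for this line and does not say which entered these libraries. Each group had 2 libraries, 1 male and 1 female, with VC tissue of 2 same-sex mice pooled per library. Libraries held 4767 to 5920 nuclei and 8824112 to 12948023 unique molecular identifiers (UMIs, the count of captured RNA molecules). P-values measure the spread between such libraries, which combines animals, sex and the 4 processing days. Limma draws that spread partly or wholly from all classes or ratios tested together, not from upper astrocytes alone. The study processed a WT and a mutant sample together on each day, and the main fits do not use that pairing.

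Upper astrocytes were a large and uneven part of the astrocytes. In VGlut2 cKO they made up 41.0% of male and 30.3% of female astrocyte nuclei, with Wilson 95% intervals of 38.6 to 43.5% and 28.0 to 32.8%. In VGlut2 WT they made up 41.0% and 30.2%, with intervals of 38.6 to 43.4% and 27.9 to 32.6%. In Ip3r2 KO they made up 35.3% and 26.3%, with intervals of 32.8 to 38.0% and 24.2 to 28.5%. In Ip3r2 WT the male library had the second lowest share, 28.5%, and the female library the highest of all, 49.1%, with intervals of 25.8 to 31.3% and 46.6 to 51.5%. The mean over libraries was 35.2% ± 7.86 (SD, n = 8). These intervals cover counting error only, and the range over libraries was wider than any of them. The spread within the Ip3r2 WT pair was the widest of the 4 groups.

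Set against all nuclei of a library, upper astrocytes amounted to 10.8% and 7.46% in VGlut2 cKO and 11.3% and 8.53% in VGlut2 WT, the male library first. They amounted to 8.24% and 7.43% in Ip3r2 KO and 6.13% and 14.3% in Ip3r2 WT. The lowest and the highest library were thus the male and the female library of the same WT group. The plot of shares by library shows both denominators.

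**Figure D1:**
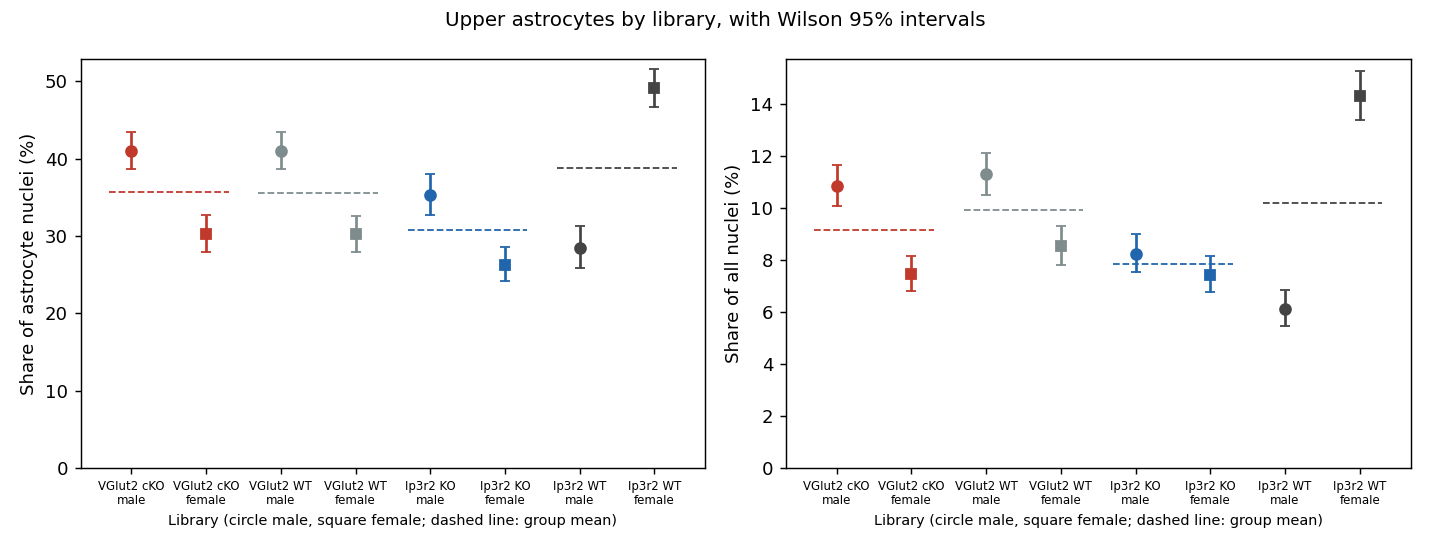
Upper astrocytes as a percentage of the astrocyte nuclei (left) and of all nuclei (right) in each of the 8 libraries, with Wilson 95% intervals and the mean of each group as a dashed line. The Ip3r2 WT libraries stand at 28.5% and 49.1% of astrocytes, while both VGlut2 groups hold 1 library at 41.0% and 1 near 30%.

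Much of the unevenness lay between upper and mid astrocytes. The ratio of upper to mid nuclei ranged from 0.537 in Ip3r2 KO female to 1.59 in Ip3r2 WT female, and upper astrocytes outnumbered mid astrocytes in 4 of 8 libraries. Upper and mid astrocytes together took 72.4% and 78.3% of astrocytes in VGlut2 cKO, 77.1% and 77.1% in VGlut2 WT, 69.7% and 75.3% in Ip3r2 KO, and 62.4% and 80.0% in Ip3r2 WT. The sum therefore varied less between the libraries of the VGlut2 groups than the upper share alone did. The Ip3r2 WT male library was low in the sum as well, with 25.9% of its astrocytes deep, against 11.8% in Ip3r2 WT female. Upper nuclei exceeded deep nuclei in 8 of 8 libraries, by a ratio of 1.10 to 4.15, and WM nuclei in 8 of 8, by a ratio of 2.43 to 6.0.

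Upper astrocytes had more captured RNA per nucleus than the other astrocyte groups. Their median UMI count was 1965 and 2696.5 in VGlut2 cKO, 2099 and 2293 in VGlut2 WT, 3132 and 2693 in Ip3r2 KO, and 2890.5 and 2875.5 in Ip3r2 WT, the male library first. It was above the median of mid astrocytes of the same library in 8 of 8 libraries, by a ratio of 1.11 to 1.16, and above that of WM astrocytes in 8 of 8, by 1.16 to 1.33. The gap to deep astrocytes was the widest of the 3, at 1.59 to 1.69 in 8 of 8 libraries. These ratios describe groups drawn from clusters of the same nuclei and were not tested. Since the groups also differ in depth, upper nuclei supplied 40.4% of the UMIs of the astrocytes while making up 35.6% of their nuclei. By library that part ran from 30.1% in Ip3r2 KO female to 53.9% in Ip3r2 WT female. Among the 18 classes whose smallest library held 20 or more nuclei, upper astrocytes ranked from 3 to 5 by median UMIs. Mature oligodendrocytes lay above them in each of the 8 libraries.

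**Figure D2:**
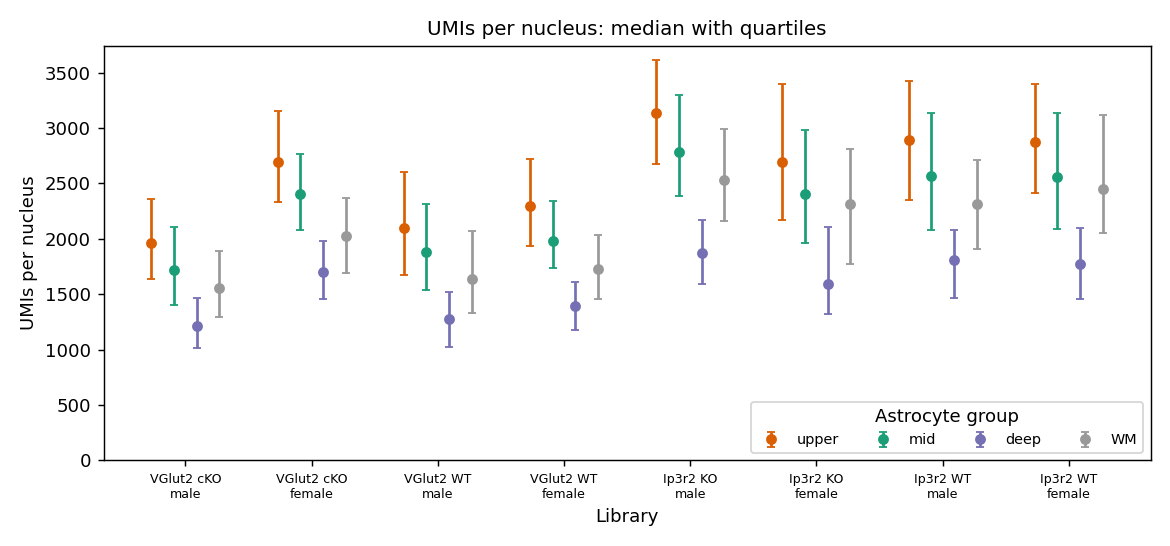
Median UMIs per nucleus of the 4 astrocyte groups in each library, with bars from the first to the third quartile. Upper astrocytes have the highest median of the 4 groups in every library, at 1965 to 3132 UMIs, and deep astrocytes the lowest.

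Single upper nuclei spread widely around these medians. Over all libraries they averaged 2594 ± 826 UMIs (SD over nuclei, which are not replicates), from 369 to 6220. Within a library the coefficient of variation was 21.7 to 34.1%, and it was below that of mid astrocytes in 5 of 8 libraries. The upper end of the range differed between the models. In the 4 Ip3r2 libraries the highest upper nucleus had 4910, 4925, 4970 and 4979 UMIs and none reached 5000, nor did any mid nucleus there, whose highest counts were 4644 to 4934. In the same libraries 67 to 161 nuclei of other classes did so, the highest at 8955 to 15795 UMIs. In the VGlut2 libraries 0 to 3 upper nuclei were at or above 5000 UMIs, with highest counts of 4702 to 6220. The cause was not tested.

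The class given to an astrocyte nucleus went with its depth within each library. When the astrocytes of a library were divided into 5 equal parts by UMIs, the upper share averaged 12.9% ± 5.73, 24.5% ± 9.28, 36.4% ± 9.51, 45.8% ± 10.5 and 56.5% ± 7.43 from the lowest to the highest part (SD, n = 8). It climbed at every step in 8 of 8 libraries, and the highest part exceeded the lowest by 34.1 to 53.3 percentage points. In Ip3r2 WT female, the library with the highest share, they were 21.7%, 42.5%, 51.8%, 62.0% and 67.4%. In Ip3r2 KO female, the library with the flattest course, they were 9.15%, 22.5%, 26.9%, 29.7% and 43.2%. Deep astrocytes ran the other way, from a mean of 48.2% in the lowest part to 1.02% in the highest. Mid astrocytes climbed at every step in 0 of 8 libraries. Whether the depth of a nucleus bore on the class it was given was not tested.

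**Figure D3:**
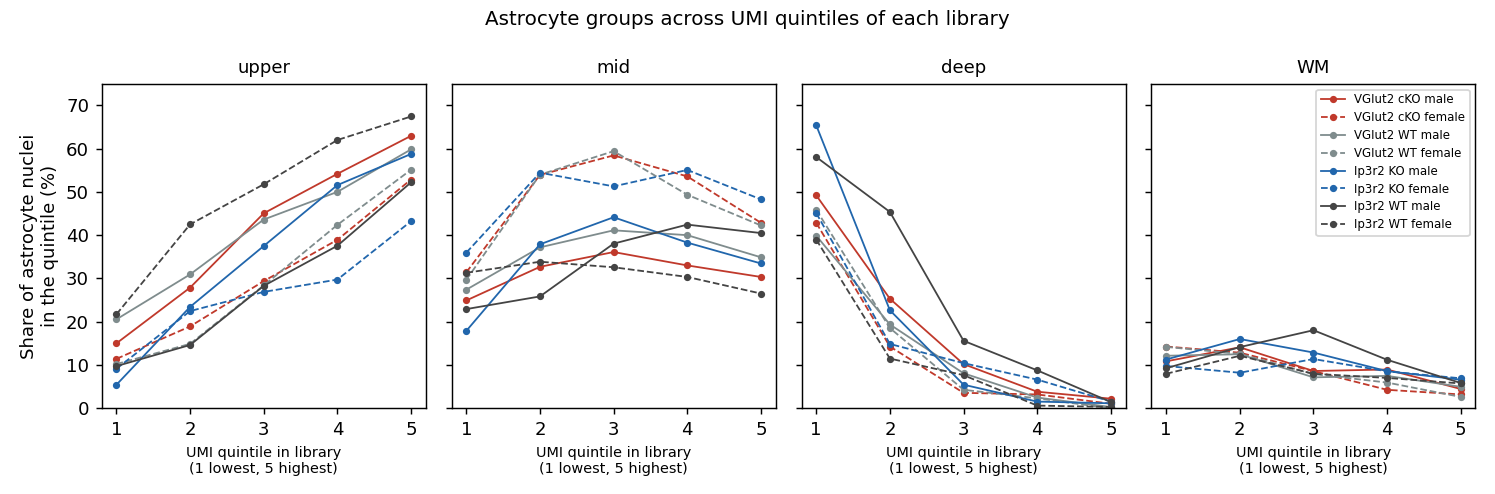
Share of each astrocyte group among the astrocyte nuclei of a library, by UMI quintile of that library (1 lowest, 5 highest), with 1 line per library. The upper share climbs at each step in all 8 libraries, while the deep share falls away and the mid share peaks between the ends in most libraries.

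The spread between libraries was still present among nuclei of like depth. Among astrocytes with 2000 to under 2500 UMIs, the upper share was 62.3% and 24.0% in VGlut2 cKO and 50% and 37.4% in VGlut2 WT, the male library first. It was 22.7% and 26.2% in Ip3r2 KO and 24.9% and 45.6% in Ip3r2 WT. The order of the libraries was not that of all nuclei, since VGlut2 cKO male was now the highest and Ip3r2 KO male the lowest. A fixed UMI band falls at a different place in the distribution of each library, as median depths differ.

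Upper nuclei held more detected genes than mid nuclei, by a smaller ratio inside a band of depth. The median number of genes was 1057 and 1340.5 in VGlut2 cKO, 1113 and 1186 in VGlut2 WT, 1516 and 1320.5 in Ip3r2 KO, and 1426 and 1398 in Ip3r2 WT. It was above that of mid astrocytes in 8 of 8 libraries, by a ratio of 1.09 to 1.13. Among nuclei with 2000 to under 2500 UMIs the ratio to mid astrocytes was 1.02 to 1.04, again above 1 in 8 of 8 libraries. Depth was not fully equal inside the band, since the median UMIs of upper nuclei were 0.996 to 1.02 times those of mid nuclei and higher in 6 of 8 libraries. In that band upper nuclei had a median of 1154 to 1245 genes, and mid nuclei of 1130 to 1194 genes. Over all bands of depth with enough nuclei, upper nuclei had more genes than mid nuclei in 31 of 37 combinations of library and band, than deep nuclei in 20 of 25, and than WM nuclei in 25 of 30. Upper nuclei also had the higher median UMIs in 23 of those 37 combinations against mid, in 20 of 25 against deep, by a ratio of up to 1.12, and in 21 of 30 against WM. The part of this remaining depth in the gene counts was not tested.

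The mitochondrial share of UMIs, often read as a sign of cytoplasmic carry-over or damage in nuclei, varied little between libraries. In upper nuclei it was 4.21% and 4.15% in VGlut2 cKO, 4.19% and 4.19% in VGlut2 WT, 4.46% and 4.34% in Ip3r2 KO, and 4.41% and 4.28% in Ip3r2 WT. All Ip3r2 values thus lay above all VGlut2 values, a small gap between the models that was not tested. The share in upper nuclei was below that of mid astrocytes in 7 of 8 libraries, by a ratio of 0.986 to 1.01. It was above that of deep astrocytes in 7 of 8, by a ratio of 0.996 to 1.06, and above that of WM astrocytes in 5 of 8, by a ratio of 0.977 to 1.06.

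In the deposited UMAP, the authors' map that places nuclei of like expression near each other, upper astrocytes bordered on mid astrocytes with no gap. Among the 15 nearest nuclei of an upper nucleus, 67.2% were upper and 28.8% mid, and 0 belonged to a class other than the 4 astrocyte groups. By library the upper part was 71.5% and 66.9% in VGlut2 cKO, 74.2% and 61.2% in VGlut2 WT, 69.9% and 55.5% in Ip3r2 KO, and 68.1% and 65.9% in Ip3r2 WT. The Ip3r2 KO female library stood lowest. There 35.6% of upper nuclei had mid nuclei as most of their neighbours, against 19.2% over all libraries and 9.74% in VGlut2 WT male. The map was built from the expression used for clustering, so these values describe the grouping and were not tested.

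Upper nuclei at the core of the group were deeper than those at its border. The 2277 core nuclei, with more than 2 in 3 neighbours upper, had a median of 2635 UMIs, and the 673 border nuclei, with at most 1 in 3 upper, had 2190 UMIs. The core median was above the border median in 8 of 8 libraries, by a ratio of 1.06 in Ip3r2 WT male to 1.38 in VGlut2 cKO male. In the deposited t-SNE, a second such map, the ratio was 1.10 to 1.26 and again above 1 in 8 of 8. Among the upper neighbours of an upper nucleus, nuclei of its own library were found 0.855 times (Ip3r2 KO female) to 1.76 times (VGlut2 WT female) as often as their part of all upper nuclei. The tile map of the UMAP shows the border and the depth side by side.

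**Figure D4:**
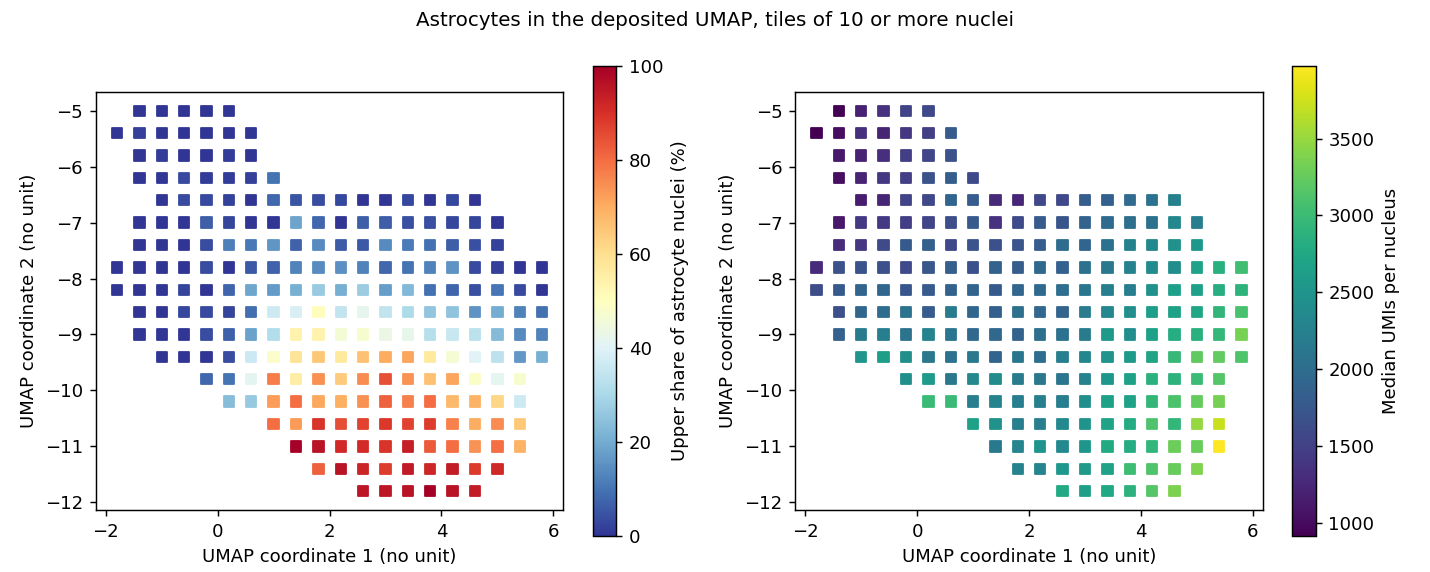
Tiles of the deposited UMAP that hold 10 or more astrocyte nuclei, coloured by the upper share of astrocyte nuclei (left) and by median UMIs per nucleus (right). Upper nuclei make up more than 50% in 68 of 237 tiles, which hold 75.8% of the upper nuclei, and the share grades into the neighbouring tiles without a gap.

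Whether silencing thalamic glutamate release or removing astrocyte calcium release alters the upper astrocytes was asked by setting each mutant against its WT. Upper astrocytes averaged 9.15% ± 2.38 of all nuclei in VGlut2 cKO and 9.91% ± 1.95 in VGlut2 WT, and 7.83% ± 0.576 in Ip3r2 KO and 10.2% ± 5.77 in Ip3r2 WT (SD, n = 2 each). On the log2 odds scale, the share of astrocytes differed by 0.00 in the VGlut2 model (95% interval -1.10 to 1.11, limma adjusted p = 0.994) and by -0.49 in the Ip3r2 model (-1.59 to 0.62, adjusted p = 0.725). The difference between the models was 0.49 (-1.07 to 2.06, adjusted p = 0.978). Limma called 0 of the 4 astrocyte groups in either model (0%), with 0 at an unadjusted p under 0.05, and edgeR also called 0. The intervals span more than a doubling or halving of the odds, so a change of that size could have gone uncalled with 2 libraries a group.

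As a share of all nuclei the differences were -0.14 in the VGlut2 model (-1.13 to 0.86, adjusted p = 0.986) and -0.30 in the Ip3r2 model (-1.29 to 0.70, adjusted p = 0.986). Limma called 0 of 20 classes in either model (0%), and edgeR likewise 0. At an unadjusted p under 0.05 limma had 1 class in the Ip3r2 model and 0 for VGlut2, and edgeR had 0 for both. The log2 ratio of upper to mid nuclei differed by 0.09 in the VGlut2 model (-1.17 to 1.34, adjusted p = 0.948) and by -0.63 in the Ip3r2 model (-1.89 to 0.62, adjusted p = 0.746), with 0 of 4 ratios called (0%) and 0 at an unadjusted p under 0.05. In the VGlut2 model the libraries of like sex had nearly the same upper share of astrocytes. There, cKO minus WT was 0.0252 percentage points for males and 0.1025 for females. In the Ip3r2 model the libraries of like sex went opposite ways. The upper share of astrocytes was 6.85 percentage points higher in the male KO than in the male WT library, and the female KO minus the female WT library gave -22.8 percentage points. Without Ip3r2 WT female the Ip3r2 difference in the log2 odds of the share of astrocytes was 0.15, and without Ip3r2 WT male it was -1.13.

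Depth and content per upper nucleus differed between mutants and WT by less than the intervals of the differences. The median UMI count averaged 2331 ± 517 in VGlut2 cKO and 2196 ± 137 in VGlut2 WT, and 2912.5 ± 310 in Ip3r2 KO and 2883 ± 10.6 in Ip3r2 WT (SD, n = 2 each). The log2 differences were 0.07 (-0.32 to 0.45, limma adjusted p = 0.959) and 0.01 (-0.37 to 0.40, adjusted p = 1.0). Genes per nucleus differed by 0.05 (-0.26 to 0.36, adjusted p = 0.922) and 0.00 (-0.31 to 0.32, adjusted p = 0.996), and the mitochondrial share by -0.00 (-0.09 to 0.08, adjusted p = 0.992) and 0.02 (-0.07 to 0.10, adjusted p = 0.952), with the VGlut2 model first. Among nuclei with 2000 to under 2500 UMIs, genes differed by 0.02 (-0.07 to 0.10, adjusted p = 0.841) and -0.00 (-0.09 to 0.09, adjusted p = 0.985), with 0 of 3 astrocyte groups called (0%) and 0 at an unadjusted p under 0.05. For UMIs, genes and the mitochondrial share limma called 0 of 18 classes in each model (0%), with 0 at an unadjusted p under 0.05. The plot of mutant minus WT differences shows that the intervals of the share measures were far wider than those of the measures per nucleus.

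**Figure D5:**
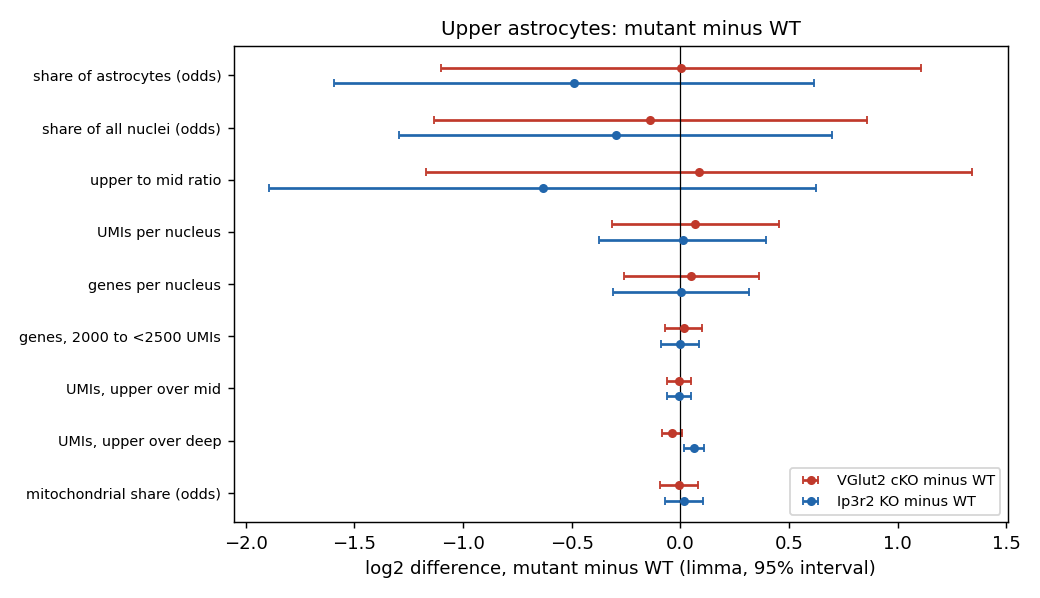
Log2 differences, mutant minus WT, for upper astrocytes and for their ratios to mid and deep astrocytes in the VGlut2 and Ip3r2 models, with limma 95% intervals. The intervals cross 0 for every measure except the UMI ratio of upper over deep astrocytes in the Ip3r2 model, where the difference is 0.06 (0.02 to 0.11).

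The gap in depth between upper and the other astrocytes was also compared inside each library. The UMI ratio of upper over mid astrocytes differed by -0.00 on the log2 scale in either model (-0.06 to 0.05 in both, limma adjusted p = 0.837 for VGlut2 and 0.841 for Ip3r2). For upper over WM astrocytes the differences were -0.01 (-0.12 to 0.09, limma adjusted p = 0.837) for VGlut2 and -0.01 (-0.12 to 0.09, limma adjusted p = 0.841) for Ip3r2. The ratio of upper over deep astrocytes was singled out after its values were seen. It was 1.62 and 1.59 in VGlut2 cKO, against 1.65 and 1.64 in VGlut2 WT, and 1.67 and 1.69 in Ip3r2 KO, against 1.60 and 1.62 in Ip3r2 WT. The groups did not overlap in either model, with cKO below WT for VGlut2 and KO above WT for Ip3r2. Of the 6 comparisons of a UMI ratio between mutant and WT, 3 did not overlap, the other being upper over mid in the Ip3r2 model, where the ratio was 1.12 and 1.12 in KO and 1.12 and 1.13 in WT. For upper over deep, the log2 difference was -0.04 for VGlut2 (-0.08 to 0.01, limma adjusted p = 0.289) and 0.06 for Ip3r2 (0.02 to 0.11, limma adjusted p = 0.0368). Subtracting the Ip3r2 difference from that of VGlut2 gave -0.10 (-0.17 to -0.04, limma adjusted p = 0.0227). Such a ratio can move through either group. Taken alone, median UMIs of deep astrocytes differed by 0.11 for VGlut2 and -0.05 for Ip3r2, and those of upper astrocytes by 0.07 and 0.01. Neither group was called when taken alone. Limma called 1 of the 3 ratios (33.3%) in the Ip3r2 model and in the comparison of models, and 0 (0%) in the VGlut2 model. The Ip3r2 call was lost when any of the 4 Ip3r2 libraries was left out (adjusted p = 0.109 to 0.312), when depth was summarised by the mean of log2 UMIs (0.01, adjusted p = 0.711), and among nuclei with at least 1000 UMIs (0.05, adjusted p = 0.938).

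Sex and model were examined across groups. Upper astrocytes averaged 34.0% ± 10.2 of astrocytes in female libraries and 36.5% ± 5.94 in male libraries (SD, n = 4 each). The female minus male difference was -0.17 on the log2 odds scale (-1.0 to 0.65, limma adjusted p = 0.644), and limma called 0 of the 4 astrocyte groups (0%), with 0 at an unadjusted p under 0.05. The female minus male difference in the share was -10.7 percentage points in VGlut2 cKO, -10.8 in VGlut2 WT and -9.04 in Ip3r2 KO, but 20.6 in Ip3r2 WT. Since the model takes sex within groups, leaving out either Ip3r2 WT library removed the group of opposite sign from the difference, which was then -0.66. The main result for sex, without a call, therefore depended on the Ip3r2 WT group. A fit lacking a library of that group holds no sex contrast for it. The study processed a WT and a mutant sample together on each day, so the male and female libraries of a group came from different days. Sex and processing day can therefore not be told apart within a group.

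Upper nuclei had more UMIs on average in the Ip3r2 than in the VGlut2 model, a difference that did not pass the test on library medians. Library medians averaged 2898 ± 180 UMIs for Ip3r2 and 2263 ± 319 UMIs for VGlut2 (SD, n = 4 each), a ratio of 1.28. The ranges met at their ends, with 2693 to 3132 for Ip3r2 and 1965 to 2696.5 for VGlut2, and the two-sided exact permutation p was 0.0571. Median genes averaged 1415 ± 80.7 for Ip3r2 and 1174 ± 123 for VGlut2, with an exact permutation p of 0.0571. The gap in UMIs was not particular to upper nuclei. Medians over all nuclei of a library were 1882 to 2242 UMIs for Ip3r2 and 1343 to 1876 for VGlut2. Those of mid nuclei were 2408 to 2786 and 1721 to 2405.5, and those of WM nuclei 2315 to 2532.5 and 1556 to 2028. Those of deep nuclei were 1589 to 1874 and 1212.5 to 1701, with overlap. Model and processing day cannot be told apart in this design.

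Cell barcodes shared between libraries were rare. Of the upper nuclei, 43 (1.05%) carried a barcode that also occurred in another library, and 2 such barcodes were upper astrocytes in both.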

How the data were processed

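RNA of single nuclei from P14 mouse VC was sequenced in 8 droplet libraries. Cell Ranger and mm10 are named in the submitters' processing notes. The authors removed barcodes with fewer than 200 genes and doublets (Scrublet), joined the samples with Scanorama, clustered them in Scanpy and clustered the astrocytes again. Such filters and the class assignment could move any share given here. The deposited table holds, per nucleus, UMIs and detected genes as raw counts, a mitochondrial fraction as deposited under a header that reads percent, and UMAP and t-SNE coordinates, a deposited score without a unit. Mitochondrial fraction times UMIs was whole within 0.001 in 44021 of 44021 nuclei.

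The replicate was the library. Shares were compared as log2 odds with 0.5 added to the nuclei, and depths as log2 medians, in limma (version 3.58.1, R version 4.3.3) with 1 mean per group over 8 libraries and Benjamini-Hochberg adjustment over the rows of each table at 0.05. The adjustment covered 4 astrocyte groups, 20 classes, or the 18 classes whose smallest library held 20 or more nuclei. For depth ratios and genes inside a UMI band it covered 3 rows. edgeR (version 4.0.16) on the nuclei counts was an alternative. Limma tests were two-sided and borrowed the spread between libraries across rows (empirical Bayes). For UMIs, genes, genes inside a UMI band, the mitochondrial share and the ratios of nuclei, every row received the same pooled spread. The intervals given there for upper astrocytes do not rest on their own spread, and the classes of a library share its depth. Exact permutation of 4 against 4 libraries cannot give a p below 0.0286. Upper astrocytes against the other astrocyte groups were described by ratios within a library, with the 3 other astrocyte groups named throughout, and not tested. The members and lists were chosen with earlier results of these data known.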

Additional observations from a re-analysis of the deposited data

Results flagged for a closer look

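The UMI ratio of upper over deep astrocytes gave mutant minus WT values of opposite sign in the 2 models, and their difference, VGlut2 minus Ip3r2, passed the test (log2 -0.102, limma adjusted p = 0.0227). The VGlut2 value alone did not pass (adjusted p = 0.289), and the Ip3r2 value (adjusted p = 0.0368) did not once any of the Ip3r2 libraries was left out (adjusted p = 0.109 to 0.312). Pairing libraries by sex, the log2 ratio was lower in VGlut2 cKO than in VGlut2 WT for males (-0.0227) and for females (-0.0512), and higher in Ip3r2 KO than in Ip3r2 WT for males (0.0640) and for females (0.0659). The pair of groups was singled out after its values were seen. The difference between the models lost its call among nuclei with at least 1000 UMIs (-0.0852, adjusted p = 0.694) and when any of 6 libraries was left out, all but VGlut2 cKO male and VGlut2 WT female (adjusted p = 0.0542 to 0.139). The part of processing day and library depth in it was not tested.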

How the results depend on the processing

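Of 351 alternative values over 30 results, 288 kept direction and side of the threshold, 46 changed sign, 13 lost the call and 4 gained it; the cause was not tested. Each result whose sign changed had a main value smaller than its standard error. The Ip3r2 difference in the share of astrocytes, -0.489, changed sign only without Ip3r2 WT female, to 0.148. Values are log2 differences in the order VGlut2, Ip3r2, VGlut2 minus Ip3r2. Among nuclei with 2000 to under 3000 UMIs (chosen after seeing the data) the VGlut2 difference in the share of astrocytes was -0.118 and in the upper to mid ratio -0.0825. With the mean of log2 UMIs the upper over mid UMI ratio differed by 0.00212 for VGlut2 and 0.00917 between the models, and the upper over deep ratio by -0.0896 for VGlut2 (adjusted p = 0.0146, a gained call) and 0.0104 for Ip3r2. Among nuclei with at least 1000 UMIs the Ip3r2 difference was 0.00185 over mid and 0.0464 over deep, and that between the models over deep -0.0852. In the band of 2500 to under 3000 UMIs, genes differed by -0.00414, 0.000852 and -0.00499. With the mean of log2 UMIs (also chosen after seeing the data) the gap between the models, Ip3r2 minus VGlut2, was 0.36 with an exact permutation p of 0.0286, the smallest possible.

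Leaving out each library in turn gave -0.337 to 0.345, -1.13 to 0.148 and -0.144 to 1.13 for the share of astrocytes, and -0.433 to 0.157, -0.973 to 0.379 and -0.517 to 0.835 for the share of all nuclei. The VGlut2 upper to mid ratio was -0.437 to 0.611. UMIs gave -0.159 to 0.298, -0.0984 to 0.120 and -0.170 to 0.287, and genes -0.120 to 0.222, -0.0966 to 0.103 and -0.123 to 0.219. Genes in the main band of 2000 to under 2500 UMIs gave -0.00807 to 0.0411, -0.0493 to 0.0478 and -0.0313 to 0.0658, and the mitochondrial share -0.0162 to 0.00712, -0.00580 to 0.0393 and -0.0438 to 0.00124. The upper over mid UMI ratio gave -0.0326 to 0.0229, -0.00850 to -0.000990 and -0.0279 to 0.0276, and the upper over deep ratio -0.0529 to -0.0210, 0.0549 to 0.0750 and -0.118 to -0.0860. The sex difference was -0.658 to -0.00601. In a group left with 1 library, that library was assumed to vary like the others.

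Pairing libraries by sex as a replicate block changed no call. The upper over deep difference for Ip3r2 was 0.0650 with the block (adjusted p = 0.0273). Deviations from the mean of a genotype group were taken in the log2 odds of the share of astrocytes, over the 4 astrocyte groups. Those of same-sex libraries correlated at 0.877 in the VGlut2 and -0.167 in the Ip3r2 model. Each correlation rests on only 4 values, which share a total, and was not tested. The sources do not say that same-sex libraries shared a day. With 2 libraries a group, counts of nuclei limit the shares less than the spread between libraries does.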
